A study of Chlamydomonas reinhardtii with 20 samples.

Results

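A set of 200 gene IDs of the green alga Chlamydomonas reinhardtii, of 17737 measured, combined lower transcript levels with biliverdin in the wild type and in the hmox1 mutant with levels that light moved little. Members had a change with biliverdin (BV) of -0.8 or lower in both strains, as the log2 ratio of group means after adding 1. In both complemented lines of the mutant, their changes from darkness to 0.5 h and to 4 h of light all lay between -1 and 1. These conditions held for 346 IDs, and the 200 with the deepest change in the less affected strain were taken. Members were thus selected on the measured BV and light changes of these same libraries, which are given below as a description with no test.

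Bilins are linear tetrapyrroles. Heme oxygenase opens the ring of heme and gives biliverdin IXα, which plants, cyanobacteria and many algae reduce further to the light-absorbing groups of phytochromes and phycobiliproteins. Chlamydomonas makes bilins although it is not known to have phytochromes, and hmox1, a heme oxygenase mutant, is short of them unless BV is supplied in the medium.

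Transcripts were measured in 20 RNA-seq libraries, 10 groups of 2. The lines ho1C1 and ho1C2, both complemented lines of hmox1, received no BV and were harvested from darkness, after 0.5 h and after 4 h of white light. The hmox1 mutant and the wild type 4A+ were sampled after 4 h of light only, each with 0.1 mM BV IXα and without it. All cultures, those without BV too, had 0.5% methanol by volume in an acetate medium and were grown in darkness, then lit at 150 µmol photons per square metre and second where light was given. The labels say nothing of the transgene in the complemented lines or of how many clones each line stands for, and the treatment protocol names only the shorter exposure. No untreated dark group of hmox1 or 4A+ was analysed here, so the response of these strains to light is not known from these libraries. The files do not pair IDs with gene names or products, so members are given by ID with no role, and HMOX1 itself was not used to check the labels.

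Levels are in RPKM, which divides reads by gene length and by the library's total, a unit inferred from the values. Absolute depth is unknown, and estimated relative depth ran from 0.62 to 2.01 between libraries. The Pearson correlation of replicates on the log2(RPKM + 1) scale was 0.9929 for hmox1 without BV and 0.9966 to 0.998 in the other 9 groups. Between the replicates of hmox1 without BV, the members' median absolute log2 difference was 0.193, against 0.0518 to 0.0889 in the other groups. In cultures sequenced in bulk, fewer cells using a gene and less RNA of it per cell cannot be told apart.

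All 200 members passed the filter on low values, which asked for 1 RPKM in no fewer than 2 libraries. They stood above the average gene: in 4A+ without BV their median level was 18.75 RPKM, with quartiles of 12.28 and 33.81 RPKM. All 13871 genes tested had medians of 4.14 and 4.3 RPKM in the same libraries. The rule itself favours genes that are high without BV, because adding 1 before the logarithm shrinks the BV change of weak genes. The higher level is therefore at least partly built in by the selection and is not read as a trait of the members. With BV the members' median fell near that of all genes, as the plot of library medians shows.

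The median member had 6.41 and 6.015 RPKM in hmox1 with BV, against 14.57 and 16.45 RPKM in hmox1 without BV. In 4A+ the median member had 6.935 and 6.545 RPKM with BV, against 18.36 and 19.36 RPKM without BV. The members' sum was 0.322% and 0.304% of all RPKM in hmox1 with BV and 0.724% and 0.769% in hmox1 without BV. It was 0.361% and 0.357% in 4A+ with BV, against 0.905% and 0.966% in 4A+ without BV. By both measures the libraries with BV were thus lower than all others, which the rule had set for hmox1 and 4A+. The rule did not set the libraries with BV against the complemented lines. Picking genes that are low with BV still favours higher levels in other libraries, so nothing is read from this.

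**Figure D1:**
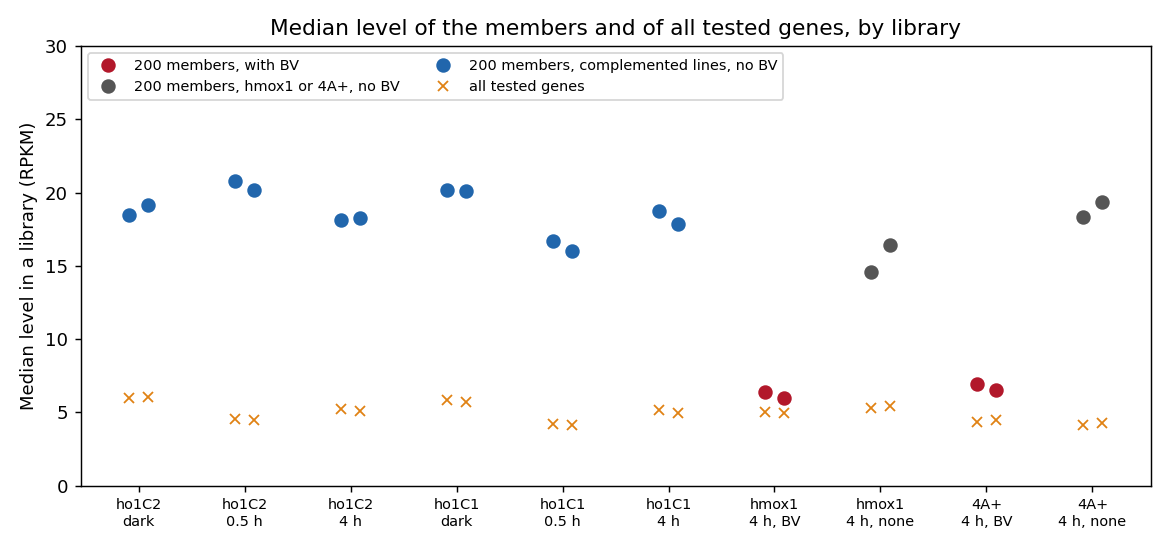
Median RPKM of the 200 members (circles, coloured by treatment and kind of strain) and of all 13871 tested genes (crosses) in each of the 20 libraries, 2 per group. The 4 libraries with BV sit between 6.015 and 6.935 RPKM and the 16 without BV between 14.57 and 20.8 RPKM, while all tested genes stay between 4.14 and 6.04 RPKM.

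The BV change was moderate for most members, and the limit of 200 set its shallow end at -0.98 in the less affected strain. On the log2(mean + 1) scale its median was -1.16 in hmox1, with a range of -1.86 to -0.98. In 4A+ the median was -1.32, with a range of -2.02 to -0.99. The median member kept 40% of its level without BV in hmox1 and 36.1% in 4A+, and the members ranged from 18.9% to 48.9% in hmox1 and from 19.3% to 48.6% in 4A+.

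The change was at or below -1.5 for 12 members in hmox1 and for 43 in 4A+. It was deeper in hmox1 for 50 members and deeper in 4A+ for 150, and the changes in hmox1 and 4A+ lay within 0.2 of each other for 120. The median difference of the changes, hmox1 minus 4A+, was 0.15 over the members and -0.13 over all genes tested. In each strain both libraries with BV lay below both without it for all 200. Selection on these same libraries favours that outcome, and it was not counted over all genes, so nothing is read from it. Of all genes tested, 37.7% were lower with BV in hmox1 and 27.4% in 4A+ at an adjusted p under 0.05 (limma with Benjamini-Hochberg adjustment), and 3.57% and 3.43% were also at least 2-fold lower. Nothing is read from these shares, since the same contrasts chose the members.

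**Figure D2:**
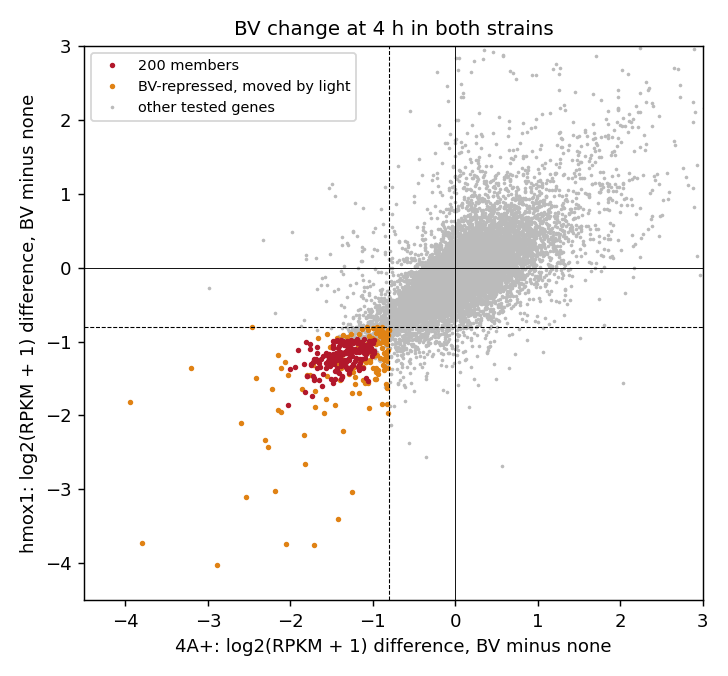
Difference with BV minus without BV at 4 h, in log2(RPKM + 1) units, in 4A+ (x axis) and hmox1 (y axis) for each tested gene. Members (red) form a compact group below the dashed lines at -0.8, genes with as deep a BV change that light moved (orange) scatter wider, and 69 genes lie outside the plotted range of -4.5 to 3.

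The 6 members with the deepest change in the less affected strain, among those at 5 RPKM or more without BV, were Cre12.g532327, Cre06.g251500, Cre08.g368500, Cre12.g529500, Cre02.g079700 and Cre14.g629550. The first, Cre12.g532327, had 1.83 and 1.47 RPKM in hmox1 with BV, against 7.93 and 9.37 RPKM in hmox1 without it. In 4A+ it had 3.07 and 2.37 RPKM with BV and 13.79 and 14.39 RPKM without BV. It kept 19.1% of its level in hmox1 and 19.3% in 4A+, while the 12 libraries of the complemented lines held 8.02 to 15.53 RPKM.

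Cre06.g251500 changed by the same amount in both strains, -1.74. It had 21.58 and 21.03 RPKM in hmox1 with BV, against 72.55 and 74.27 RPKM in hmox1 without BV. In 4A+ it had 27.68 and 27.24 RPKM with BV and 93.18 and 95.18 RPKM without BV. The complemented lines, at 67.94 to 87.86 RPKM in darkness and light, overlapped the untreated libraries of hmox1 and none of the treated ones.

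Cre08.g368500 had 13.08 and 12.62 RPKM in hmox1 with BV, against 46.99 and 40.33 RPKM in hmox1 without BV. Its 4A+ values were 15.41 and 14.13 RPKM with BV and 53.21 and 56.53 RPKM without BV. Of the remaining 3, Cre12.g529500 kept 31.1% of its level in hmox1 and 27.7% in 4A+. Cre02.g079700 kept 33.1% in hmox1 and 30.6% in 4A+, and Cre14.g629550 kept 31.9% in hmox1 and 32.2% in 4A+. Each of these members changed nearly alike in both strains.

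The 6 most abundant members were Cre03.g198250, Cre02.g077300, Cre06.g275100, g12927, Cre13.g567850 and Cre16.g690500. Of these 6, Cre06.g275100 had the widest gap between strains in the share kept. It had 86.93 and 83.43 RPKM in hmox1 with BV, against 188.52 and 261.84 RPKM in hmox1 without BV. In 4A+ it had 98.7 and 97.35 RPKM with BV, against 378.73 and 411.63 RPKM without BV. The levels with BV were close in both strains and those without BV were not, so 37.8% was kept in hmox1 and 24.8% in 4A+.

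Cre02.g077300 changed least in 4A+ of these 6. Its values were 162.87 and 150.88 RPKM in hmox1 with BV, against 341.58 and 309.73 RPKM in hmox1 without BV. In 4A+ they were 195.06 and 200.25 RPKM with BV, against 400.58 and 412.65 RPKM without BV. It kept 48.2% in hmox1 and 48.6% in 4A+. For g12927, Cre13.g567850 and Cre16.g690500 the kept shares ran from 36.9% to 45.5% in hmox1 and from 40.8% to 43.9% in 4A+.

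The edge of the set fell among genes of like values. The last 3 taken, Cre03.g205800, g17198 and Cre13.g573000, and the first 3 left out by the limit of 200, g1281, Cre03.g160500 and g15361, all had a change of -0.98 in the less affected strain. Just past the threshold, Cre01.g044400, g11670 and Cre12.g496450 stood at -0.80 and kept 48.8% to 55.2% in hmox1 and 53.7% to 55.8% in 4A+.

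In light the members stayed near their dark levels, as the rule required. The median change in ho1C2 was 0.09 at 0.5 h and -0.06 at 4 h, and in ho1C1 it was -0.27 at 0.5 h and -0.14 at 4 h. All genes tested had medians of -0.31 and -0.16 in ho1C2 and -0.38 and -0.13 in ho1C1, at 0.5 h and 4 h. For 101 members all 4 changes were within 0.5, and for 24 at least one was past 0.8 in size.

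A scaling by median-ratio factors, which sets the typical gene rather than the total equal, moved the median of all genes by 0.31 and 0.38 at 0.5 h in ho1C2 and ho1C1, and by 0.15 at 4 h in both. The members' median relative to that of all genes was 0.40 and 0.10 at 0.5 h in ho1C2 and ho1C1 before this scaling, and 0.46 and 0.19 after it. The sign of the members' own median at 0.5 h in ho1C1 turned, to 0.19. At 4 h the medians turned too, to 0.11 in ho1C2 and 0.03 in ho1C1. Which way light moved the typical member thus depends on the scaling, and none of these sizes reaches the limit of the rule.

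Of the 512 IDs with a BV change of -0.8 or lower in both strains, 67.6% lay inside the light window, against 67.9% of all genes tested. The 166 BV-repressed IDs outside the window had median light changes of 1.14 and 0.70 in ho1C2 and 1.06 and 1.10 in ho1C1, at 0.5 h and 4 h. The contrast between these and the members was set by the rule and was not tested.

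**Figure D3:**
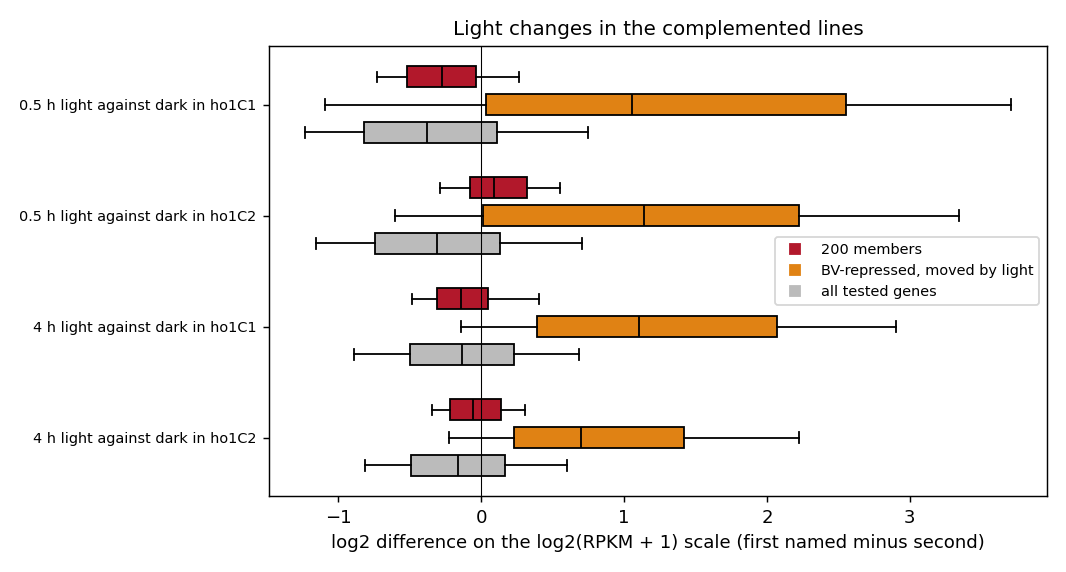
Light changes in the complemented lines in log2(RPKM + 1) units for the members (red), the 166 other BV-repressed genes that light moved (orange) and all tested genes (grey). Boxes give the quartiles with the median as a line and whiskers run from the 10th to the 90th percentile; the members' boxes lie close to 0 in all 4 comparisons while the orange boxes reach far to the right.

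Within the window the members were not uniform. Cre15.g635100 stood at 9.09 and 9.99 RPKM in dark ho1C2, 13.22 and 13.45 at 0.5 h, and 19.47 and 20.33 at 4 h. In ho1C1 it had 11.46 and 12.06 RPKM in darkness, 13.72 and 14.65 at 0.5 h, and 22.39 and 21.39 at 4 h. Its 4 h changes of 0.99 and 0.84 were close to the limit, and its levels at 4 h in both lines were close to the 19.95 and 20.49 RPKM of 4A+ without BV. Cre06.g261150 went through a low at 0.5 h, with 31.63 and 33.54 RPKM in dark ho1C2, 23.61 and 24.64 at 0.5 h and 59.41 and 59.87 at 4 h. Cre10.g459600 was lower at 0.5 h in ho1C1, with 33.1 and 34.07 RPKM in darkness, 16.8 and 16.28 at 0.5 h and 23.81 and 23.93 at 4 h. These 3 were picked after their values were seen, to show members at the edge of the light window.

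The comparisons between strains and lines were not themselves used to choose the members, but they are not independent of the rule. They share libraries with it, since every group entered it through a BV or a light change. Several of them also share hmox1 or 4A+ libraries with each other. For each gene, the gap of hmox1 to 4A+ differs between the media by the difference of its BV changes, which the rule used. The gap between the complemented lines differs between times by the difference of their light changes in the same way. They were tested with limma on log2(RPKM + 1) over all 13871 genes, with Benjamini-Hochberg adjustment. Few members reached a 2-fold difference, so members past an adjusted p of 0.05 at any size are also counted, a rule added after the data were seen.

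Without BV, members were lower in hmox1 than in 4A+. At 4 h, 3 members were higher and 134 lower in hmox1, while 53.5% of all genes tested were higher and 11.8% lower. The members' median difference was -0.30 and that of all genes 0.24, and 182 of 200 members were below 0. Over the members, the median hmox1 minus 4A+ difference of the BV changes was 0.15, so part of the -0.30 rests on values the rule used. After median-ratio scaling, which moved the median of all genes by -0.25, 0 members were higher and 189 lower, against 30.3% higher and 30.6% lower of all genes. The median of the members relative to all genes was -0.54 before this scaling and -0.62 after it. Leaving out either hmox1 library without BV gave 118 or 135 members lower, and 9 or 5 higher.

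Only Cre12.g532314 was called at 2-fold in this comparison, where 7.04% of all genes were at least 2-fold higher and 0.8% at least 2-fold lower. It had 5.51 and 4.33 RPKM in hmox1 without BV, against 11.96 and 12.29 RPKM in 4A+ without BV, with no overlap. Its difference was -1.16 ± 0.15 (SE) at an adjusted p of 5.4e-06. The number of 2-fold calls was 2 without the first hmox1 library, 5 without the second and 13 with median-ratio scaling.

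The other named members lower in hmox1 included abundant ones. Cre06.g275100 averaged 225 ± 51.8 RPKM in hmox1 and 395 ± 23.3 RPKM in 4A+ (SD, n = 2 each), a difference of -0.83 at an adjusted p of 2.68e-06. Cre03.g172550, chosen after its values were seen, averaged 31.6 ± 2.98 RPKM in hmox1 and 57.6 ± 3.72 RPKM in 4A+ (SD, n = 2 each; difference -0.85, adjusted p = 6.64e-09). Cre02.g079700 averaged 33.0 ± 0.12 RPKM in hmox1 and 52.4 ± 0.134 RPKM in 4A+ (SD, n = 2 each; difference -0.65, adjusted p = 5.2e-08). The groups did not overlap for any of these 3.

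The 3 members that were higher in hmox1 were Cre07.g347850, Cre05.g234050 and Cre02.g086550, named after their values were seen. Cre07.g347850 had 4.96 and 4.67 RPKM in hmox1 without BV, against 3.35 and 3.37 RPKM in 4A+ without BV, a difference of 0.42 (adjusted p = 0.00121). Cre05.g234050 had 26.81 and 22.7 RPKM in hmox1 without BV and 19.61 and 20.6 RPKM in 4A+ without BV, a difference of 0.28 (adjusted p = 0.00506). Cre02.g086550 averaged 9.495 ± 0.742 RPKM in hmox1 and 7.93 ± 0.495 RPKM in 4A+ (SD, n = 2 each; difference 0.23, adjusted p = 0.0103). None of the 3 was higher by this test after median-ratio scaling.

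With BV, 154 of 200 members were below 0 in hmox1 against 4A+. Of the members 10 were higher and 70 lower in hmox1, against 34.9% higher and 15% lower of all genes tested. The median was -0.15 for the members and 0.10 for all genes. Median-ratio scaling moved the median of all genes by -0.13 and gave 1 member higher and 136 lower, against 24.1% and 27.4% of all genes. Without the second 4A+ library with BV 5 members were higher, and without the first hmox1 library with BV 3 were. Whether the gap differs between the media was not tested here, because that difference is the one between the BV changes that chose the members.

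The one 2-fold call with BV was Cre03.g189200, where 3.89% of all genes were at least 2-fold higher and 0.995% at least 2-fold lower. It had 3.61 and 3.14 RPKM in hmox1 with BV, against 9.91 and 7.85 RPKM in 4A+ with BV. The difference was -1.17 ± 0.10 (SE), at an adjusted p of 3.31e-08. Without BV it had 11.33 and 9.51 RPKM in hmox1 and 20.63 and 21.66 RPKM in 4A+, so it was lower in hmox1 in both media.

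One member chosen after its values were seen, Cre10.g433100, was higher in hmox1 with BV and lower without it. It had 7.15 and 6.43 RPKM in hmox1 with BV, against 5.12 and 5.0 RPKM in 4A+ with BV (difference 0.36, adjusted p = 0.00139). Without BV it had 13.88 and 16.96 RPKM in hmox1, against 17.59 and 19.26 RPKM in 4A+ (difference -0.25, adjusted p = 0.0141). The libraries of the strains did not overlap in either medium.

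**Figure D4:**
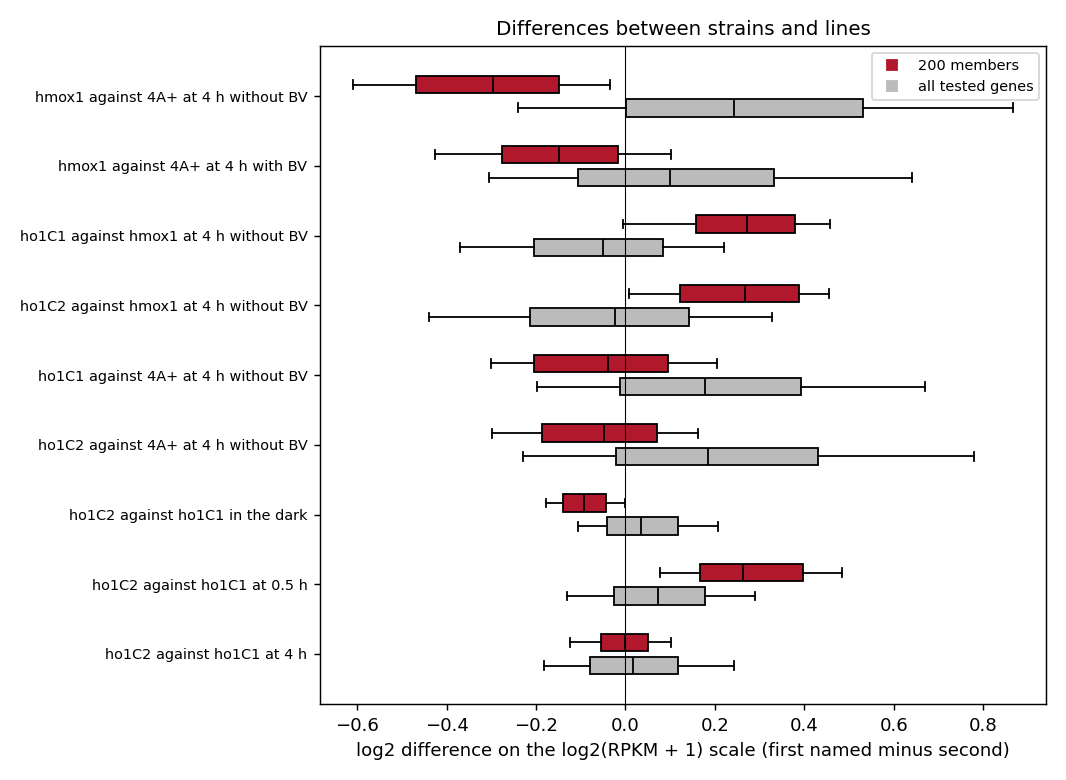
Differences between strains and lines in log2(RPKM + 1) units for the 200 members (red) and all 13871 tested genes (grey), with boxes as quartiles, lines as medians and whiskers from the 10th to the 90th percentile. Members lie left of all genes for hmox1 against 4A+ (medians -0.30 and 0.24 without BV) and right of them for the complemented lines against hmox1 (0.27 against -0.05 and -0.02).

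At 4 h without BV, members were higher in both complemented lines than in hmox1. In ho1C2, 118 members were higher and 3 lower than in hmox1, against 16.1% higher and 22.9% lower of all genes. In ho1C1, 117 members were higher and 3 lower, against 8.15% higher and 19.6% lower of all genes. The members' median difference was 0.27 in both lines, and that of all genes -0.02 in ho1C2 and -0.05 in ho1C1. With median-ratio scaling 136 members were higher in ho1C2 and 146 in ho1C1, against 18.6% and 12.7% of all genes.

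These counts rest partly on the spread shared by all groups. A fit of the compared groups alone gave 50 members higher in ho1C2 and 29 in ho1C1, and leaving out the first ho1C1 library at 4 h gave 72 higher in ho1C1. The shares of all genes under these runs were not counted, so whether the members still exceed them is not known. The comparisons use the same hmox1 libraries, so their likeness is not separate evidence. Leaving out the first or the second hmox1 library left 95 or 130 higher in ho1C2 and 86 or 123 in ho1C1. Without the second hmox1 library 6 members were lower in ho1C2 and 7 in ho1C1.

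The largest positive differences among members were 0.76 in ho1C2 and 0.70 in ho1C1, so none reached 2-fold, where 0.663% of all genes did in ho1C2 and 0.274% in ho1C1. Cre06.g275100 had 353.6 and 384.22 RPKM in ho1C2 and 360.49 and 363.67 RPKM in ho1C1 at 4 h, against 188.52 and 261.84 RPKM in hmox1. Its differences were 0.73 in ho1C2 (adjusted p = 2.64e-05) and 0.70 in ho1C1 (adjusted p = 7.83e-05). Cre12.g532314 had 10.22 and 7.89 RPKM in ho1C2 and 7.65 and 7.41 RPKM in ho1C1, against 5.51 and 4.33 RPKM in hmox1. All of its complemented libraries were above both mutant libraries, with differences of 0.76 in ho1C2 (adjusted p = 0.000766) and 0.53 in ho1C1 (adjusted p = 0.0151).

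Against 4A+ at 4 h without BV, the complemented lines were close at the median. In ho1C2, 19 members were higher and 55 lower than in 4A+, against 45.1% higher and 11.4% lower of all genes. In ho1C1, 21 were higher and 53 lower, against 43.5% higher and 9.76% lower of all genes. The members' medians were -0.05 in ho1C2 and -0.04 in ho1C1, and all genes stood at 0.18 in both. Median-ratio scaling moved the median of all genes by -0.23 and -0.20. It gave 1 member higher and 149 lower in ho1C2 and 3 higher and 135 lower in ho1C1, against 24.8% and 31.4%, and 24.1% and 27.2%, of all genes.

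How close the lines stood to 4A+ therefore depends on the scaling, and relative to all genes the members were lower in both by 0.23 and 0.22 before it and by 0.28 and 0.27 after it. Without the second 4A+ library without BV, 27 members were lower in ho1C2 and 31 in ho1C1, and without the first, 9 were higher in each line. Leaving out the second ho1C2 library at 4 h gave 32 members lower and 11 higher, and leaving out the first gave 11 higher. Without the first ho1C1 library at 4 h 10 were higher.

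Set beside the group means of the other strains, most members in the complemented lines were at levels without BV. The rule chose members whose means with BV were well below those without it, which favours this outcome in any library without BV. This tally was not made over other genes, so it is given as a description and nothing is read from it. At 4 h, 107 members in ho1C2 and 105 in ho1C1 lay between the means of hmox1 and 4A+ without BV, and 76 and 77 lay above both. Another 15 and 16 lay below both yet above both means with BV. In each line 2 members were at or below the higher of the means with BV.

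These 2 members were Cre03.g198250 and Cre16.g681100. Cre03.g198250, the most abundant member in 4A+, had 28.84 and 30.35 RPKM in ho1C2 and 34.35 and 36.35 RPKM in ho1C1 at 4 h. It had 511.01 and 518.33 RPKM in hmox1 without BV and 759.97 and 807.52 RPKM in 4A+ without BV. In darkness it stood at 25.1 and 29.26 RPKM in ho1C2 and 24.34 and 28.77 RPKM in ho1C1. With BV it had 242.38 and 253.92 RPKM in hmox1 and 302.65 and 324.52 RPKM in 4A+. Both complemented lines were thus far below every hmox1 and 4A+ library at every time, treated or not.

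Against hmox1 the difference of Cre03.g198250 was -4.08 in ho1C2 (adjusted p = 2.24e-17) and -3.83 in ho1C1 (adjusted p = 1.35e-16). Against 4A+ it was -4.68 in ho1C2 (adjusted p = 9.82e-19) and -4.43 in ho1C1 (adjusted p = 5.13e-18). In hmox1 against 4A+ it was -0.61 without BV (adjusted p = 1.33e-06). It was the single 2-fold call among members in each complemented line against hmox1, where 1.8% of all genes were at least 2-fold lower in ho1C2 and 1.05% in ho1C1.

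Cre16.g681100 was the least abundant member in the complemented lines. It had 0.67 and 0.76 RPKM in ho1C2 and 0.78 and 0.77 RPKM in ho1C1 at 4 h, against 1.97 and 2.28 RPKM in hmox1 and 3.53 and 4.0 RPKM in 4A+ without BV. In darkness it was at 0.03 and 0.05 RPKM in ho1C2 and 0.02 and 0.03 RPKM in ho1C1. Adding 1 before the logarithm kept its light changes of 0.45 to 0.79 inside the window, although its RPKM in darkness was a small part of that in light. Its place among members that light does not move thus rests on that constant.

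Cre16.g681100 was 2-fold lower than in 4A+ in ho1C2 (difference -1.47, adjusted p = 3.78e-11) and ho1C1 (-1.42, adjusted p = 9.37e-11). The other 2-fold calls against 4A+ were Cre03.g198250 in both lines and Cre03.g189200 in ho1C1 (-1.07, adjusted p = 1.39e-07), which missed 2-fold in ho1C2 at -0.95 (adjusted p = 4e-07). Of all genes 0.815% in ho1C2 and 0.627% in ho1C1 were at least 2-fold lower than in 4A+. None of the members was at least 2-fold higher, against 5.7% and 4.02% of all genes.

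**Figure D5:**
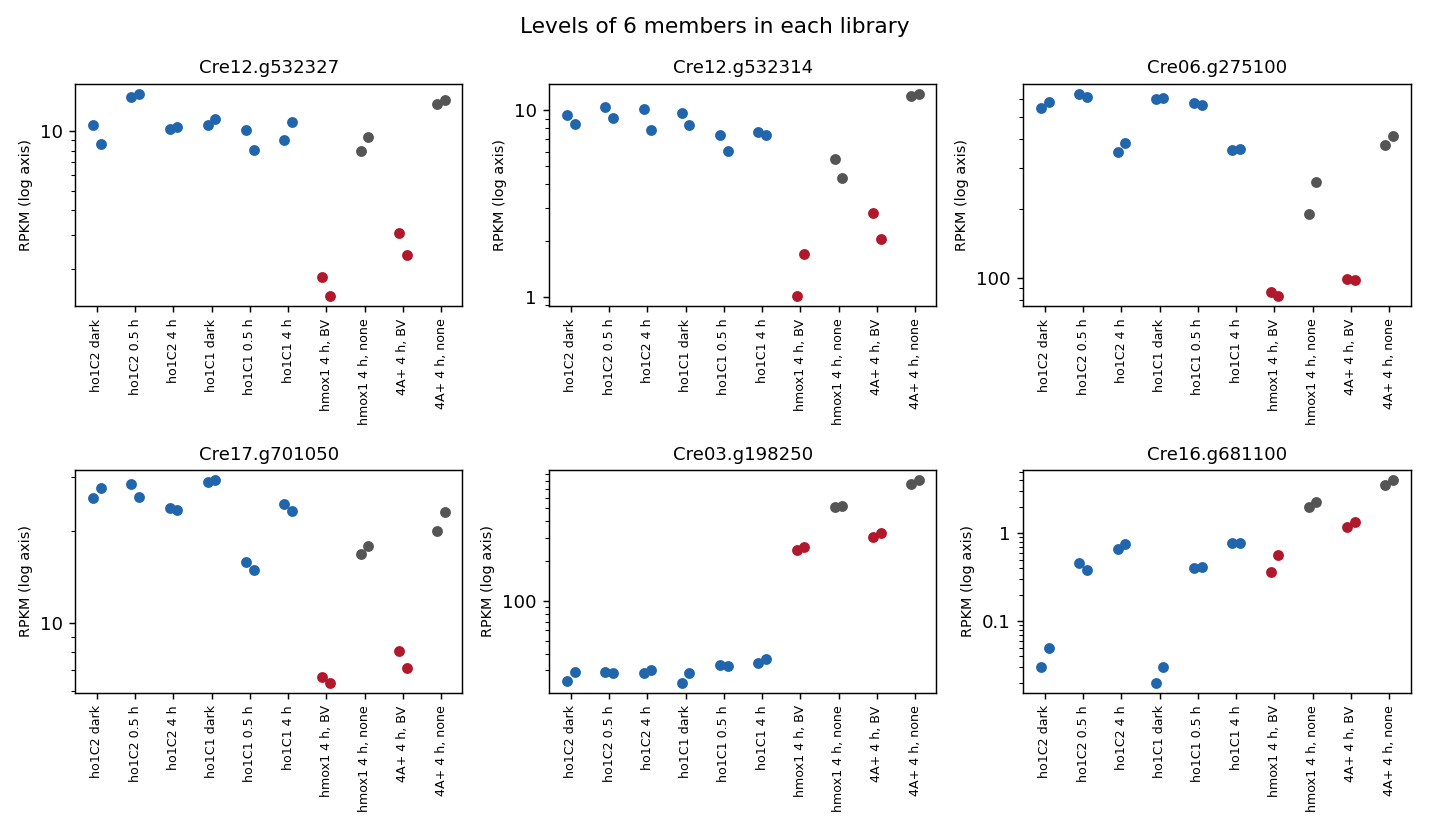
RPKM of 6 members in each of the 20 libraries on log axes that differ between panels, with BV in red, hmox1 and 4A+ without BV in grey and the complemented lines in blue. In the first 4 panels the blue points lie above all red points; in Cre03.g198250 and Cre16.g681100 they lie below all grey ones, and for Cre03.g198250 below the red ones too.

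Between the complemented lines, more members passed the test at 0.5 h than in darkness or at 4 h. In the dark 0 members were higher and 4 lower in ho1C2 than in ho1C1 at an adjusted p under 0.05, against 2.77% higher and 0.67% lower of all genes. The median was -0.09 for members and 0.03 for all genes, with 180 of 200 members below 0. At an unadjusted p under 0.05, 1 member was higher and 28 lower, against 1637 higher and 448 lower of all 13871 genes. The 4 were g1265, Cre15.g635100, Cre06.g282600 and Cre02.g077300, named after their values were seen, with differences from -0.39 to -0.19. None was called without either ho1C1 library or without the first ho1C2 library, and 1 was without the second.

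At 0.5 h, 108 members were higher and 0 lower in ho1C2 than in ho1C1, against 10.8% higher and 2.21% lower of all genes. At an unadjusted p under 0.05 there were 142 members higher and 1 lower, against 3084 higher and 723 lower of all 13871 genes. The members' median was 0.26 and that of all genes 0.07, and 191 of 200 members were above 0. Median-ratio scaling gave 62 higher and 2 lower, with a median of 0.15, against 4.84% higher and 7.44% lower of all genes. The count fell to 42 without the second ho1C1 library, to 54 without the first ho1C2 library and to 67 without the second. A fit of these groups alone gave 142 higher and 1 lower.

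No member reached 2-fold at 0.5 h, where 0.108% of all genes were at least 2-fold higher and 0.0288% lower. Cre17.g701050, chosen after its values were seen as the member with the largest difference, had 28.34 and 25.79 RPKM in ho1C2, against 15.77 and 14.9 RPKM in ho1C1 (difference 0.78, adjusted p = 3.67e-06). In darkness it had 25.61 and 27.55 RPKM in ho1C2 and 28.71 and 29.14 RPKM in ho1C1, and at 4 h 23.63 and 23.33 RPKM in ho1C2 and 24.39 and 23.17 RPKM in ho1C1. The ho1C2 libraries thus lay above those of ho1C1 at 0.5 h, below them in darkness (adjusted p = 0.527) and overlapped them at 4 h.

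Cre03.g172550 behaved likewise at 0.5 h, with 70.7 and 70.94 RPKM in ho1C2, against 44.3 and 41.33 RPKM in ho1C1 (difference 0.71, adjusted p = 2.67e-06). At 4 h it had 42.4 and 45.0 RPKM in ho1C2 and 40.25 and 42.96 RPKM in ho1C1 (adjusted p = 0.618). Cre12.g532327 had 15.0 and 15.53 RPKM in ho1C2 at 0.5 h, against 10.19 and 8.02 RPKM in ho1C1 (difference 0.69, adjusted p = 0.00183).

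At 4 h few members passed the test between the lines. With limma 2 members were higher and 2 lower in ho1C2 at an adjusted p under 0.05, against 7.49% higher and 4.63% lower of all genes. At an unadjusted p under 0.05, 3 members were higher and 6 lower, against 1994 higher and 1314 lower of all 13871 genes. The median was 0.00 for members and 0.02 for all genes. Of the 166 BV-repressed genes that light moved, 0 were higher and 60 lower in ho1C2. Leaving out any one of the 4 libraries left 0 members higher and 0 or 1 lower.

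The 146 genes that met the same conditions but fell past the limit of 200 went the same way as the members in these comparisons. Without BV, 13 were higher and 81 lower in hmox1 than in 4A+, with a median of -0.24. Against hmox1, 64 were higher and 11 lower in ho1C2, and 59 higher and 9 lower in ho1C1. At 0.5 h 58 were higher and 0 lower in ho1C2 than in ho1C1. They met the same rule on the same libraries, so they extend the description rather than test it. Among the 166 BV-repressed genes that light moved, 49 were higher and 63 lower in hmox1 than in 4A+ without BV, with a median of -0.06. Against hmox1, 31 of those were higher and 87 lower in ho1C2, and 35 higher and 53 lower in ho1C1. Their difference from the members was not tested.

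Some members lay next to each other in the genome. Of the members 158 (79%) matched RefSeq's gene table for the assembly Chlamydomonas_reinhardtii_v5.5, which was used only for gene order. Among these, 6 adjacent pairs held 12 members: Cre03.g159900 with Cre03.g159950, Cre10.g441400 with Cre10.g441450, Cre11.g480060 with Cre11.g480079, Cre12.g532314 with Cre12.g532327, Cre13.g573000 with Cre13.g573050, and Cre16.g649350 with Cre16.g649400. The sources used here do not say whether reads of adjacent genes were kept apart by strand. How many pairs an equal number of other genes would form was not tested.

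The pair Cre12.g532314 and Cre12.g532327 held the deepest member of the set beside the one with the largest gap between hmox1 and 4A+ without BV. With BV, Cre12.g532314 had 1.01 and 1.7 RPKM in hmox1 and 2.8 and 2.04 RPKM in 4A+, and it kept 27.5% and 20% of its level. Its neighbour's values are given above, and both were lower in hmox1 than in 4A+ without BV, Cre12.g532327 with a difference of -0.65 (adjusted p = 0.00023).

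In other pairs the neighbours differed in level or in their differences between strains. Cre10.g441400 had 123.88 and 129.26 RPKM in hmox1 without BV and 161.9 and 173.94 RPKM in 4A+, while Cre10.g441450 had 12.99 and 14.75 RPKM in hmox1 and 20.47 and 21.38 RPKM in 4A+. Both were lower in hmox1, with differences of -0.40 (adjusted p = 7.17e-06) and -0.56 (adjusted p = 2.36e-06). Cre03.g159900 was lower in hmox1 (difference -0.73, adjusted p = 1.36e-06), while its neighbour Cre03.g159950 had a difference of -0.09 (adjusted p = 0.273). Cre16.g649350 and Cre16.g649400 were higher than in 4A+ in ho1C2 (0.34 and 0.43, adjusted p = 0.000187 and 0.00152) and in ho1C1 (0.36 and 0.52, adjusted p = 0.000124 and 0.000365).

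Another 250 genes lay next to a member without being one, and 218 of these were tested. In hmox1, 100 of them (45.9%) were lower with BV and 40 (18.3%) higher at an adjusted p under 0.05 (limma). Of all genes tested, 37.7% were lower and 20.5% higher there. The median difference was -0.17 for the neighbours and -0.11 for all genes. In 4A+, 72 (33%) were lower and 60 (27.5%) higher, against 27.4% and 32.1% of all genes, with medians of -0.03 and 0.03. Leaving the members out of this list removed the adjacent genes with the deepest BV change, so nothing is read from these shares.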

How the data were processed

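RNA-seq libraries of 20 cultures were grouped by strain, BV and light as the sample labels give them, and replicates are labelled biological with no further word on how they were separated, so that p-values reflect only the spread among these samples. The deposited values are RPKM made by the authors, a unit inferred from the values, because neither labels nor header names it. Low values were whole multiples of a step per gene and library, and column sums ran from 718144 to 797204. Of 1408 low values of 128 genes 98.6% came within 0.005 plus 2% of a whole multiple, which gave the relative depths. The depths were fitted to these same values, and with the depths shuffled between libraries 43.9% came as close on average. The submitters' processing notes list STAR 2.3.0 and HTSeq. Their roles, the genome build, its gene models and the strand setting were not given in the sources used here. RPKM sets library totals equal, so a wide shift of many genes moves all others.

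Genes reaching 1 RPKM in no fewer than 2 libraries, 13871 of 17737, were tested on log2(RPKM + 1) with limma 3.58.1 in R 4.3.3, with a mean-variance trend, robust moderation, all libraries in 1 fit (10 residual degrees of freedom) and Benjamini-Hochberg adjustment within each of 9 comparisons. The fit was also run on simulated data with independent normal noise and the same spread in all groups, and its outcome is not given here. That run does not cover the wider replicate spread of hmox1 without BV. A call is an adjusted p under 0.05 and a log2 difference of at least 1, and the count at adjusted p alone was added after the data were seen. Differences on this scale understate changes of weakly expressed genes.

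Members and lists were chosen with earlier results of these data known. Named genes are the 6 deepest and 6 most abundant members, the 2 most changed called members in each direction per comparison, those at the edges of the rule and adjacent members, 33 in all. Other IDs are said to be chosen after their values were seen. A check of gene length or GC content is void, as only 79% of members matched the reference table, under the 80% needed. No sequence, promoter or protein was analysed here.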

Additional observations from a re-analysis of the deposited data

Results flagged for a closer look

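Among members, 4 differed between the complemented lines at 4 h in limma with Benjamini-Hochberg adjustment. Because both lines were set against the same hmox1 libraries, this is also the difference of the lines' contrasts against hmox1. On the log2(RPKM + 1) scale, ho1C2 minus ho1C1, it was -0.36 for g1165 (3.38 ± 0.424 RPKM in ho1C2 and 4.595 ± 0.346 RPKM in ho1C1; adjusted p = 0.0474) and -0.25 for Cre03.g198250 (29.6 ± 1.07 and 35.4 ± 1.41 RPKM; adjusted p = 0.0338). It was 0.22 for g9844 (21.2 ± 0.177 RPKM in ho1C2 and 18.0 ± 0.58 RPKM in ho1C1; adjusted p = 0.0338) and 0.30 for Cre12.g524550 (6.61 ± 0.148 and 5.17 ± 0.233 RPKM; adjusted p = 0.0199). Of these, g1165, g9844 and Cre12.g524550 were named after their values were seen. Errors are SDs with n = 2 each, and the lines' libraries did not overlap for any of the 4. When a library of these groups was left out, 0 members were higher and at most 1 lower. Groups of 2 libraries were not tested for outlying libraries.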

How the results depend on the processing

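Every median of the members that was past 0.00 kept its direction in the 9 comparisons under each alternative run. With a pseudocount of 0.1, 2 members were called at 2-fold for hmox1 against 4A+ without and with BV and for each complemented line against hmox1, and 1 was lower in ho1C2 than in ho1C1 at 4 h. With median-ratio factors, 2-fold calls were 13 for hmox1 against 4A+ without BV, 2 with BV and 4 for ho1C2 against 4A+. Members higher were then 0 and 1 for hmox1 against 4A+ without and with BV, 3 and 1 for ho1C1 and ho1C2 against 4A+, and 62 and 1 for ho1C2 against ho1C1 at 0.5 h and 4 h. Members lower were 136 for hmox1 against 4A+ with BV, 135 and 149 for ho1C1 and ho1C2 against 4A+, and 2 and 4 between the lines at 0.5 h and 4 h. Fits of the compared groups alone gave 1 higher for hmox1 against 4A+ without BV, 29 and 50 for ho1C1 and ho1C2 against hmox1, 4 for the lines at 4 h, and 1 lower at 0.5 h. With no filter on low values 1 was lower at 4 h. The causes were not tested. Calls over all genes were counted again with median-ratio factors only. Counts of members under the other runs, here and below, therefore have no share of all genes beside them.

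Leaving out each replicate gave, for hmox1 against 4A+ without BV, 1 to 5 calls at 2-fold, 2 to 9 higher and 102 to 135 lower, and with BV 3 to 10 higher and 48 to 64 lower. Against hmox1, ho1C1 had 72 to 123 higher and 2 to 7 lower, and ho1C2 90 to 130 higher and 4 to 6 lower. Against 4A+, ho1C1 had 9 to 17 higher and 31 to 48 lower, and ho1C2 9 to 15 higher and 27 to 41 lower. Between the lines 0 to 1 were lower in darkness, 42 to 84 higher at 0.5 h, and 0 higher and 0 to 1 lower at 4 h. A library left alone in its group is assumed to vary like the others.

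Same-numbered replicates showed deviation correlations from -0.1 to 0.33, so the numbers were not taken to pair the samples. A replicate block gave 136 members lower for hmox1 against 4A+ without BV and 77 with BV, 122 and 125 higher in ho1C1 and ho1C2 than in hmox1, 5 lower in ho1C1, and 116 higher in ho1C2 than in ho1C1 at 0.5 h. The 346 IDs that met the rule became 479 with a pseudocount of 0.1, 281 with median-ratio factors and 313 to 370 with 1 replicate left out, and 192, 185 and 195 to 200 of the members still met it. Of the recomputed counts, 230 stayed within 1.5 times and 59 moved further. Of the recomputed medians and other values, 122 stayed near the main value and 5 did not. The limits were fixed at 0.1 for medians and 1.5 times for the other values, and were not taken from the replicates. Absolute depth is unknown, so counting error cannot be given.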
